A study of Homo sapiens with 6 samples.

Results

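The genes described here are 41 genes of glycolysis and of the transcriptional response to low oxygen, followed in 6 RNA sequencing libraries of HEK293 cells. They were chosen by name, with no threshold on their values, as the glycolytic enzymes, the subunits of the hypoxia-inducible factors (HIF), the genes that degrade HIF and well-known HIF targets. All 41 were rows of the count table, which holds 57773 genes, and 40 of the 41 passed the filter on low counts that 22010 genes passed in all.

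HEK293 is an established human embryonic kidney cell line. The cells were grown in DMEM and transiently transfected with the plasmid PX459, which carries Cas9 and a guide cassette, and were selected with puromycin for 36 h from the day after transfection. The 3 conditions were the plasmid without a target guide (empty vector, EV), 4 guide sequences against ZNF146 (sgZNF146) and 4 guide sequences against ZNF507 (sgZNF507), with 2 libraries each, and RNA was taken after outgrowth to 2 weeks. All 3 conditions share the transfection, Cas9 and the selection. The disrupted cells were sequenced as mixed populations and not as clones, so cells with and without a damaged target are averaged. The study reports both proteins as nearly undetectable by western blot in the targeted cells. It also reports frequent insertions and deletions at the guide sites in the RNA reads. No low-oxygen arm is among the 6 libraries, and the levels below are those of cells in ordinary culture.

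Glycolysis splits glucose into pyruvate. Its preparatory steps spend ATP on phosphorylating and splitting the sugar, and its payoff steps return ATP and end in pyruvate, which lactate dehydrogenase can reduce to lactate. HIF is a dimer of an oxygen-sensitive alpha subunit and the constitutive subunit ARNT. In oxygen, prolyl hydroxylases of the EGLN family mark the alpha subunit, and the ubiquitin ligase subunit VHL then sends it to the proteasome. When oxygen falls, the alpha subunit persists, binds DNA at a short core sequence and raises glucose transporters, most glycolytic enzymes, angiogenic factors and its own inhibitor EGLN3.

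The HIF core sequence is ACGTG, with GCGTG as a second accepted form, and both were searched on both strands in the 250 bases before each RefSeq transcription start, with overlapping matches counted separately, so that CACGTG counts as 2. The promoter table matched 35 of the 41 genes (VEGFA, SLC2A3, NDRG1, SLC16A1, VHL and BNIP3L were not matched). ACGTG was found before at least 1 start of 20 of these 35 genes (57.1%), and before at least 1 start of 5935 of all 27305 genes in the table (21.7%). By start, it was found at 23 of 65 starts of the genes described (35.4%) and at 18.5% of all starts. Either form was found before 80.0% of the 35 genes and before 47.4% of all genes, and by start at 58.5% and 43.2%. The shares by gene rise with the number of starts, which was 65 for the 35 genes and 35116 for all 27305. A match describes the letters only and is no evidence of binding. The sequences below are the stretches that hold the matches of the first listed start of 6 genes, 3 that passed no test at the main settings (LDHA, PGK1 and BNIP3) and 3 that differed between libraries of different replicate number. Capitals mark the core matches as read on the printed strand, so that CACGT and CACGC are the same cores on the other strand. The lactate dehydrogenase stretch lies at chr11:18394368-18394504 on the plus strand of GRCh38.p14, from 195 to 59 bases before the start. The phosphoglycerate kinase stretch lies at chrX:78104027-78104079 on the plus strand. That of the mitophagy receptor BNIP3 lies at chr10:131982013-131982076 and is printed as the minus strand reads.
LDHA: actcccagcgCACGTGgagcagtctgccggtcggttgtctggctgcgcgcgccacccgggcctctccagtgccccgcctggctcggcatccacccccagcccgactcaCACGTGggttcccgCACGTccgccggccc
PGK1: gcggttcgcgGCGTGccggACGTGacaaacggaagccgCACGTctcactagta
BNIP3: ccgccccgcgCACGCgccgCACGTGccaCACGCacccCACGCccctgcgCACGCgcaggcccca

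The stretches of HK2, KDM3A and EPAS1, which differed between replicate numbers, all lie on the plus strand of chromosome 2 in the same build. They are at chr2:74833888-74834093 for hexokinase 2, at chr2:86441335-86441359 for the histone demethylase KDM3A and at chr2:46297280-46297304 for the HIF alpha subunit EPAS1.
HK2: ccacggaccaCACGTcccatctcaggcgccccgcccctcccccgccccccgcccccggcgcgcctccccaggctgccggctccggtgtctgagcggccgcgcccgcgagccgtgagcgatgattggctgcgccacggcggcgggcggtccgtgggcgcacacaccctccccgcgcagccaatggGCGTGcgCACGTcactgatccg
KDM3A: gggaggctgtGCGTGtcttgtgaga
EPAS1: gcctgccggcGCGTGcccgcccaca

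The BNIP3 stretch holds 6 matches, the LDHA stretch 5, the PGK1 and HK2 stretches 3 each and the KDM3A and EPAS1 stretches 1 each. Of the other genes that differed between replicate numbers, SLC2A1 had 0 matches of either form before its listed start, and NDRG1 was not matched. The number of matches and the behaviour of these genes in the libraries were set side by side and not tested.

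The libraries held 22724439 to 28524025 counts. ZNF507 fell in sgZNF507 from 73.7 ± 2.48 to 48 ± 1.06 CPM (counts relative to the scaled library total, mean ± SD, n = 2, log2 fold change -0.62, edgeR adjusted p = 0.00195). ZNF146 was 110 ± 6.68 CPM in EV and 101 ± 2.47 in sgZNF146 (edgeR adjusted p = 1). In sgZNF507, where ZNF146 was not targeted, its mean was lower still, at 94.9 ± 9.22 CPM (log2 fold change against EV -0.214, SE 0.0771), and this difference was not called either. RNA level is not a direct measure of disruption by small insertions and deletions. The HEK293 markers PAX2, KRT8, KRT18, VIM, NEFM and SOX11 were present in every library, PAX2 at 139 to 191 counts. The blood markers PTPRC, CD3E and HBB stayed at or under 5 counts, the hepatocyte markers ALB and APOA1 at or under 11, the endothelial markers VWF and CDH5 at or under 28, and the fibroblast markers DCN and LUM at or under 34, while COL1A1 had 1495 to 1933 counts. Libraries of 1 group differed by more than counting error (chi-square per degree of freedom 6.38 to 9.6), and the study's methods give them as biological duplicates.

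The 41 genes took 1.18% to 1.29% of all counts in the 6 libraries, and the 15 glycolytic enzymes 0.952% to 1.05%. The payoff enzymes, GAPDH, ENO1 and PKM, held 49.4% to 51.1% of the counts of the 41. Set against the length of the canonical transcript, the highest levels were those of GAPDH, which oxidises glyceraldehyde 3-phosphate, at 2075 CPM per kb (mean of 6 libraries, range 2001 to 2195), ENO1, the main enolase, at 1118 (range 1062 to 1209) and ALDOA, the main aldolase, at 656 (range 630 to 714). The aldolase level was close to that of triose-phosphate isomerase TPI1 at 650 CPM per kb (range 623 to 673), and the ranges of these neighbours overlapped. GAPDH stood at 2591 and 2650 CPM in EV, 2739 and 2624 CPM in sgZNF146 and 2821 and 2571 CPM in sgZNF507. ENO1 stood at 2069 and 1941 CPM in EV, 2001 and 1892 CPM in sgZNF146 and 2153 and 1894 CPM in sgZNF507. ALDOA stood at 1081 and 1032 CPM in EV, 1082 and 1046 CPM in sgZNF146 and 1170 and 1038 CPM in sgZNF507. For all 3 enzymes the groups overlapped, and the highest library was sgZNF507 replicate 1.

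Below these came PKM (605 CPM per kb), LDHB (553), PGAM1 (208), LDHA (181) and GPI (105), then a band of genes between 44.6 and 62.4 CPM per kb in every library that held SLC16A1, PFKL, PGK1, PFKP and HK1. The HIF targets outside glycolysis lay lower. NDRG1, a stress-induced protein of the N-myc downstream group, was the highest of them at 27.6 CPM per kb and ANKRD37 the lowest at 3.32 CPM per kb among those with counts. Between them, in CPM per kb, lay BNIP3 (16.2), VEGFA (13.4), BNIP3L (11.0) and KDM3A (10.2). Lower in that range lay the collagen prolyl hydroxylases P4HA1 (9.93) and P4HA2 (6.25), the MYC antagonist MXI1 (6.77) and ADM (4.38). The flux regulators ranged from PFKFB3 (18.0 CPM per kb) over PFKFB4 (3.67) to PDK1 (1.97), the kinase that shuts pyruvate dehydrogenase. Over the 6 libraries the coefficient of variation was lowest for MXI1 (1.64%) and HK1 (2.15%) and highest for PFKFB4 (15%), SLC16A3 (14.1%) and ANKRD37 (13.6%). SLC16A3, the lactate exporter MCT4, had 29 to 47 counts per library and 0.566 CPM per kb, the lowest level of the 40 tested genes. It shares 482 exon bases on the opposite strand with CSNK1D, which had up to 9987 counts, and whether reads of one were counted for the other was not tested. CA9, carbonic anhydrase IX and a textbook HIF target, had 0 counts in all 6 libraries. A count of 0 allows a level of up to 0.104 to 0.13 CPM, depending on the library (3 counts, counting error only). CA9 shares 571 exon bases on the opposite strand with ARHGEF39, which had up to 920 counts. ANKRD37 shares 909 in the same way with UFSP2, which had up to 604. Whether these overlaps changed the counts of CA9 and ANKRD37 was not tested.

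**Figure D1:**
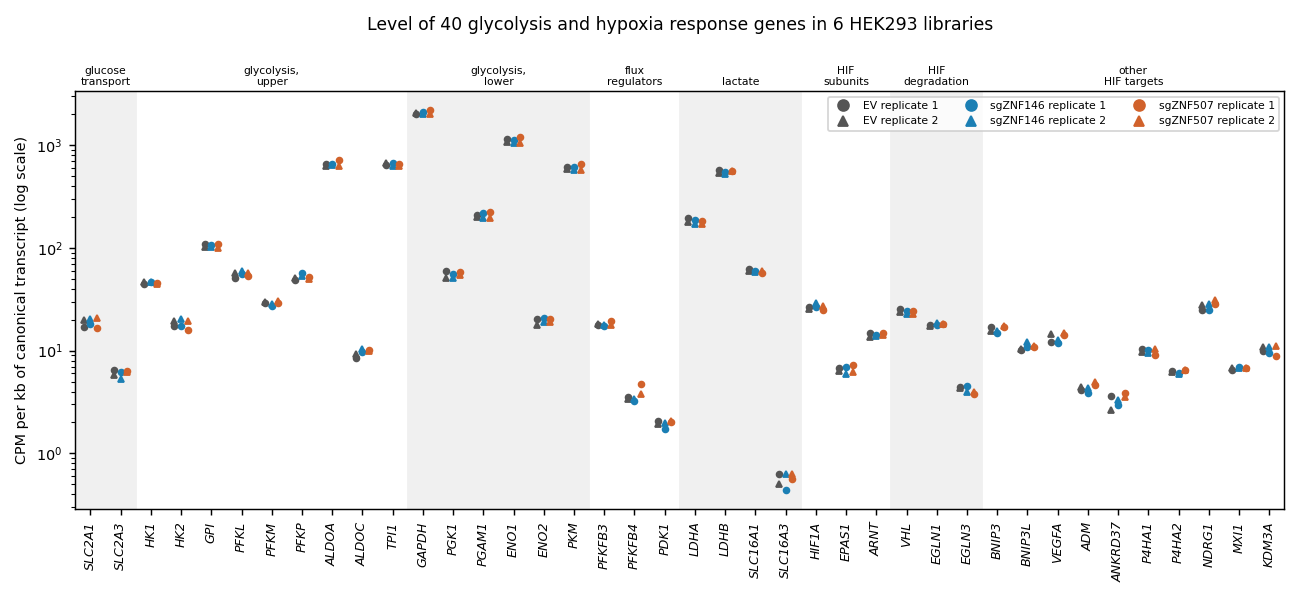
Level of the 40 tested genes in each of the 6 libraries, as CPM per kb of canonical transcript on a log axis, grouped by role. Colours mark the 3 groups and shapes the replicate number. The levels span from 0.566 (SLC16A3) to 2075 (GAPDH) on average, and for most genes the 6 points nearly coincide.

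Where a step has several isozymes, 1 form usually carried most of the RNA. ALDOA made up 98.5% ± 0.113 of aldolase CPM per kb (SD, n = 6 libraries), ENO1 98.3% ± 0.0756 of enolase and SLC16A1 (MCT1) 99.1% ± 0.131 of the 2 monocarboxylate transporters. LDHB, the form abundant in heart, made up 75.3% ± 0.759 of lactate dehydrogenase, against 24.7% for LDHA, the HIF-induced form. HK1, the constitutive hexokinase, made up 71.6% ± 1.8 and the HIF-induced HK2 28.4%. Phosphofructokinase was the exception, with PFKL at 40.8%, PFKP at 38% and PFKM at 21.2%. Of the HIF alpha subunits HIF1A made up 80.1% ± 2.06 and EPAS1 (HIF-2 alpha) 19.9%. Among the remaining pairs, SLC2A1 made up 75.5% ± 2.97 of SLC2A1 and SLC2A3, and PFKFB3 83.1% ± 1.49 of the PFKFB pair. EGLN1 made up 81.2% ± 1.37 of EGLN1 and EGLN3, and P4HA1 61.4% ± 1.5 of the 2 collagen prolyl hydroxylases. All shares here cover only the forms among the 41 genes. Outside them stood the glucose transporters SLC2A8 (17.3 CPM per kb) and SLC2A6 (11.6), beside SLC2A1 at 18.8 and SLC2A3 at 6.05. The prolyl hydroxylase EGLN2 (11.3 CPM per kb) was also outside, beside EGLN1 at 18.0. BNIP3 made up 59.7% ± 2.39 of the BNIP3 pair. These shares depend on the transcript length used. With the summed length of all annotated exons, BNIP3 fell below BNIP3L (40.4%) and the HK1 share was 58.1%, while the leading form stayed the same in the other families.

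**Figure D2:**
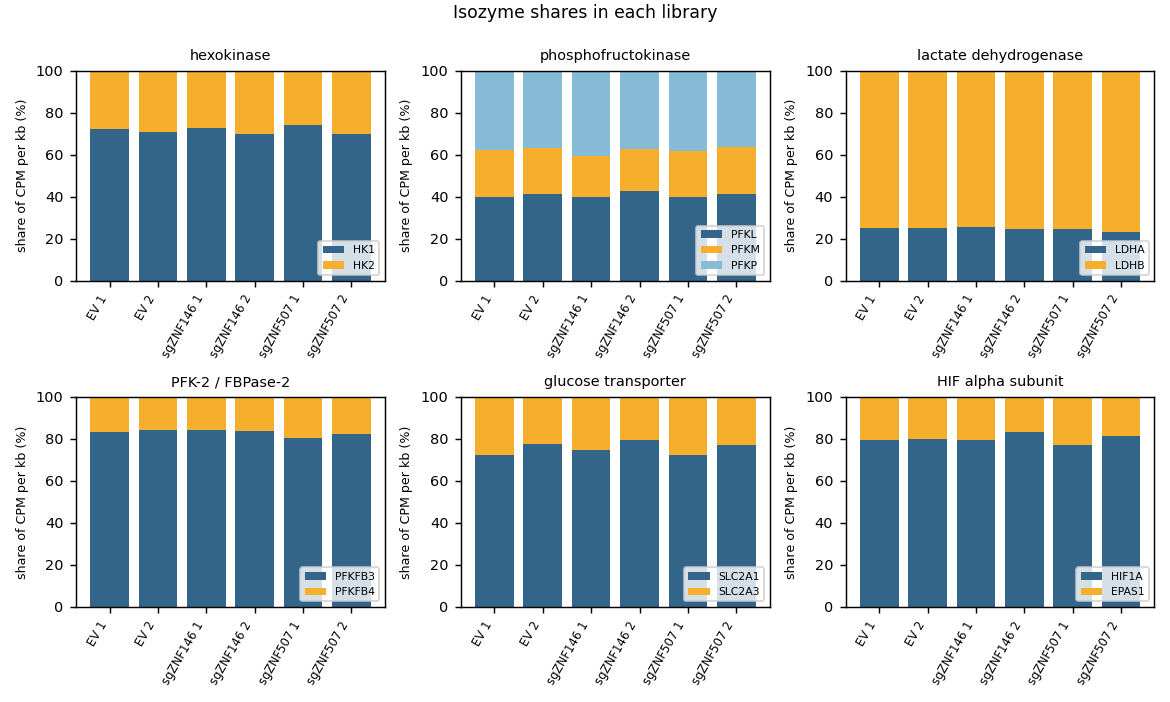
Share of each isozyme in the CPM per kb of its family, for 6 families in each of the 6 libraries (bars sum to 100%). The stacked bars differ little between groups, with HK1 at 69.6% to 74% and LDHB at 74.7% to 76.7% of these forms.

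Near-identical copies affect some of these genes. The table names 155 pseudogenes of 18 of the 41 genes, and 42 of them are BNIP3 copies, which took 15.9% to 21.3% of all counts named BNIP3. The share was 1.13% to 2.58% for SLC2A3, 1.58% to 1.94% for TPI1 and 0.974% to 1.06% for PGAM1, and for GAPDH, with 64 pseudogenes, 0.332% to 0.423%. The BNIP3 value is therefore less certain than the others.

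The first comparison asked whether disruption of ZNF507 or ZNF146 moved these genes. None of the 40 tested genes passed the threshold (edgeR quasi-likelihood test, Benjamini-Hochberg adjusted p under 0.05). That holds for sgZNF507 against EV, for sgZNF146 against EV and for sgZNF507 against sgZNF146, where 0.182%, 0% and 0.173% of all tested genes passed. These tests do not pair the libraries, and with the replicate number as a block VEGFA passed in sgZNF507 against sgZNF146, as given below. DESeq2 also called 0 of the 40 in each. At an unadjusted p under 0.05 the counts were 1, 1 and 2 of 40, against 3.39%, 2.43% and 4.03% of all genes. The median log2 fold change of the 40 genes was 0.03, -0.02 and 0.01 in the 3 comparisons, beside -0.0032, -0.0013 and -0.004 for all tested genes. The comparisons share libraries and are not independent. In bulk RNA a change in the share of cells that express a gene and a change in the RNA of each cell cannot be told apart.

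The intervals give the uncertainty of the fold change gene by gene. They do not give the smallest change that the adjusted test over all genes would have called. In sgZNF507 against EV the 95% interval of 34 of the 40 genes lay within 1.3-fold in either direction, and that of 38 within 1.5-fold. The counts for sgZNF146 against EV were 36 and 39. All 15 glycolytic enzymes were within 1.5-fold in both comparisons and 14 of 15 within 1.3-fold, with ALDOC as the exception in each. The glycolytic enzymes of the payoff steps had log2 fold changes of 0.01 to 0.04 in sgZNF507 and of -0.05 to 0.05 in sgZNF146. The widest intervals were those of SLC16A3 and ANKRD37, the genes with the fewest counts, and both reached beyond 1.5-fold in sgZNF507, as SLC16A3 did in sgZNF146. With replicate number as a block, the intervals of 35 genes in sgZNF507 and 38 in sgZNF146 lay within 1.3-fold, among them all 15 enzymes.

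**Figure D3:**
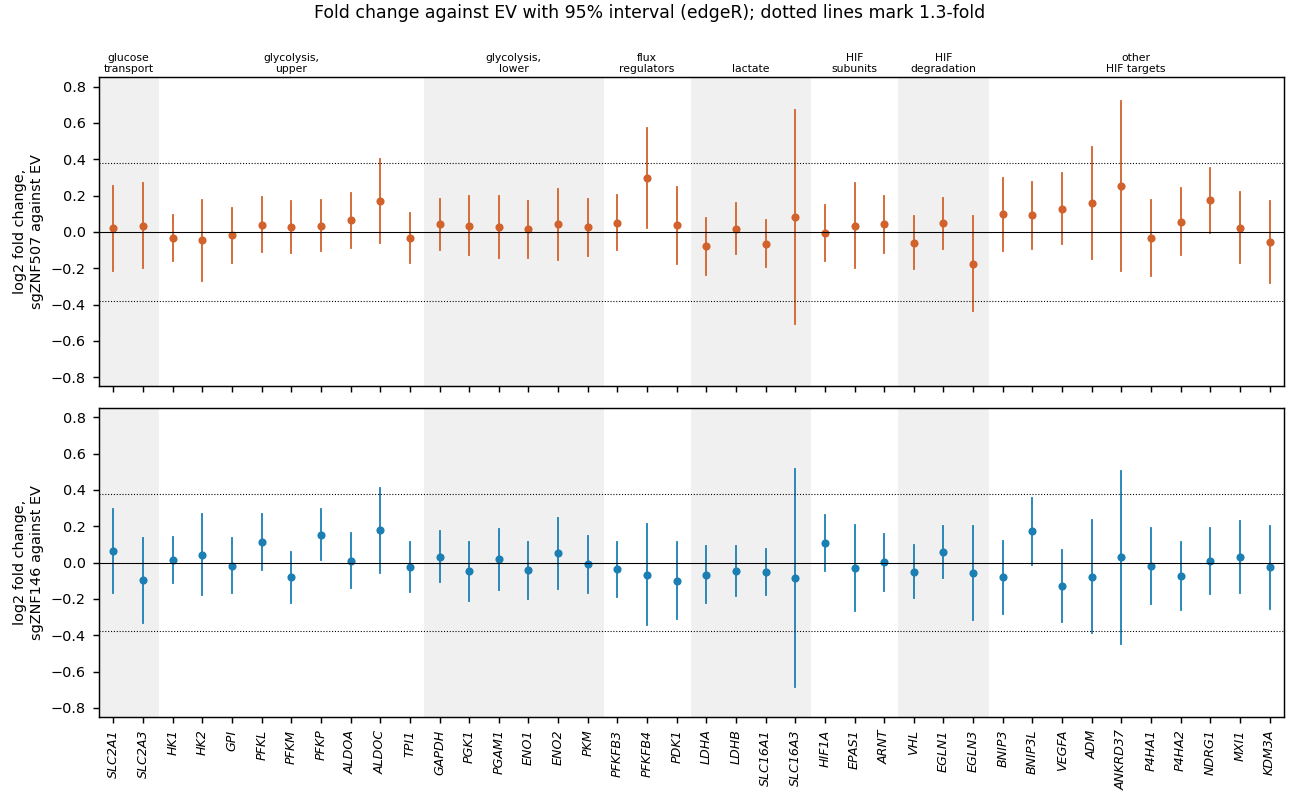
Log2 fold change of the 40 tested genes in sgZNF507 (top) and sgZNF146 (bottom) against EV, with 95% intervals from edgeR over 2 libraries a group. Dotted lines mark 1.3-fold. Most intervals cross 0 and stay inside the lines, and PFKFB4 in sgZNF507 and PFKP in sgZNF146 are the genes whose interval does not reach 0.

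The HIF subunits and the genes of HIF degradation were followed one by one. HIF1A, whose protein is controlled mainly by its stability, stood at 104 and 100.1 CPM in EV, 106 and 115 CPM in sgZNF146 and 97.2 and 107 CPM in sgZNF507. ARNT stood at 69.5 and 63.9 CPM in EV, 67.6 and 65.9 CPM in sgZNF146 and 70.4 and 66.8 CPM in sgZNF507. For HIF1A both sgZNF146 libraries lay above EV, with a log2 fold change of 0.11 (SE 0.0711, edgeR adjusted p = 1), and the ARNT groups overlapped. VHL stood at 111 and 105 CPM in EV, 109 and 100.6 CPM in sgZNF146 and 107 and 101 CPM in sgZNF507. EGLN1, the main HIF prolyl hydroxylase in most cells, stood at 77.2 and 75.4 CPM in EV, 77.7 and 81.2 CPM in sgZNF146 and 78.3 and 79.3 CPM in sgZNF507. The VHL groups overlapped, and the EGLN1 libraries of both disruptions lay just above EV. EGLN3, a prolyl hydroxylase that HIF itself induces, stood at 12.1 and 11.7 CPM in EV, 12.2 and 10.7 CPM in sgZNF146 and 10.2 and 10.8 CPM in sgZNF507. Both sgZNF507 libraries were below both EV libraries, with a log2 fold change of -0.18 (SE 0.121, edgeR adjusted p = 1). Over these 6 genes, EPAS1 included, the log2 fold changes in either disruption against EV lay between -0.18 and 0.11.

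PFKFB4 had the largest difference. It makes and degrades fructose 2,6-bisphosphate, the activator of phosphofructokinase, lies at chr3:48555117-48599448 on the minus strand of GRCh37, and is a HIF target. It stood at 12.3 and 11.9 CPM in EV, 11.3 and 11.8 CPM in sgZNF146 and 16.5 and 13.3 CPM in sgZNF507. The sgZNF507 libraries lay above all 4 others and also differed most from each other. The log2 fold change was 0.30 (SE 0.127) against EV and 0.36 (SE 0.128) against sgZNF146, with unadjusted p of 0.0373 and 0.0147 and an edgeR adjusted p of 1 in both. Without sgZNF507 replicate 1 the difference from EV was 0.13. PFKFB4 shares 298 exon bases on the same strand with UCN2, which had up to 17 counts.

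VEGFA, the vascular growth factor, lies at chr6:43737921-43754224 on the plus strand of GRCh37. It stood at 44 and 52.3 CPM in EV, 42.6 and 45.7 CPM in sgZNF146 and 51.8 and 53.4 CPM in sgZNF507. The sgZNF507 libraries were above both sgZNF146 libraries and overlapped EV. The log2 difference between the disruptions was 0.25 (SE 0.0907, edgeR adjusted p = 1). Once replicate number entered as a block, it was 0.25 (SE 0.0666, adjusted p = 0.0484), and VEGFA was then the only 1 of the 40 called in this comparison, where 0.891% of all genes were called. The block called 0 of the 40 in either comparison with EV, beside 0.55% of all genes for sgZNF507 and 0.15% for sgZNF146.

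The other genes with the largest differences did not pass the threshold, with or without the replicate block. ADM, the vasodilator adrenomedullin, stood at 6.23 and 6.58 CPM in EV, 5.75 and 6.40 CPM in sgZNF146 and 6.86 and 7.42 CPM in sgZNF507, and sgZNF507 was above the 4 others (log2 difference from sgZNF146 0.24, SE 0.143). ANKRD37, a small ankyrin repeat protein, stood at 2.81 and 2.06 CPM in EV, 2.33 and 2.62 CPM in sgZNF146 and 3.04 and 2.76 CPM in sgZNF507. Its EV libraries differed by more than its groups did on average. ALDOC, the brain-type aldolase, stood at 13.6 and 15.0 CPM in EV, 15.8 and 16.6 CPM in sgZNF146 and 16.4 and 15.8 CPM in sgZNF507, so that EV was below both disruptions (log2 fold change 0.18 in sgZNF146, SE 0.108, and 0.17 in sgZNF507). BNIP3L, a mitophagy receptor, showed the same order, with 35.1 and 36.0 CPM in EV, 37.8 and 42.4 CPM in sgZNF146 and 37.2 and 38.6 CPM in sgZNF507. PFKP, the platelet phosphofructokinase, stood at 127 and 133 CPM in EV, 150.2 and 140.1 CPM in sgZNF146 and 136 and 131 CPM in sgZNF507. Only its sgZNF146 libraries were above all 4 others, and its unadjusted p of 0.0321 against EV became an edgeR adjusted p of 1.

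The other genes of these pathways gave the same count. Of 93 genes in 3 lists (glycolysis, pyruvate and lactate, the HIF pathway, and hypoxia-induced genes), 82 were tested. The threshold was passed by 0 of them in each of the 3 comparisons, with edgeR and with DESeq2. With edgeR 0.182%, 0% and 0.173% of all tested genes passed. At an unadjusted edgeR p under 0.05 there were 1, 2 and 5 of the 82, beside 3.39%, 2.43% and 4.03% of all tested genes. DDIT4, a stress-induced inhibitor of mTORC1, had 37.2 and 30.0 CPM in EV, 38.6 and 31.7 CPM in sgZNF146 and 46.0 and 38.9 CPM in sgZNF507. In each group replicate 1 was the higher library, and at each replicate number sgZNF507 was the highest group. Its log2 fold change in sgZNF507 against EV was 0.34 (SE 0.125, edgeR adjusted p = 1), and with the replicate block 0.34 (SE 0.0703, adjusted p = 0.00406). Leaving out 1 library moved the difference without the block from 0.18 (without EV replicate 2) to 0.50 (without EV replicate 1), and it was 0.21 without sgZNF507 replicate 1. Against sgZNF146 the block gave an adjusted p of 0.0397 for DDIT4. HMOX1, which degrades heme, had 114 and 95.6 CPM in EV, 97.6 and 73.7 CPM in sgZNF146 and 119 and 85.7 CPM in sgZNF507. Its log2 fold change in sgZNF146 against EV was -0.29 (SE 0.148, edgeR adjusted p = 1), and with the block -0.30 (SE 0.0562, adjusted p = 0.00516). In sgZNF507 against sgZNF146 the block also called HMOX1 (adjusted p = 0.00954) and the transferrin receptor TFRC (0.20, adjusted p = 0.0482). These pathway genes were the ones whose call the block changed. In the 3 comparisons, in the order above, the block called 1, 1 and 3 of the 82, beside 0.55%, 0.15% and 0.891% of all tested genes.

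The remaining named genes of the lists had few counts. LDHC, the testis lactate dehydrogenase, had 35 to 57 counts and a log2 fold change of -0.46 in sgZNF507 against EV (SE 0.243). IGFBP3, a growth factor binding protein, had 23 to 55 counts and PDK4, which inhibits pyruvate dehydrogenase, 25 to 49. In sgZNF146 against EV they had log2 fold changes of 0.52 (SE 0.316) and 0.46 (SE 0.338), and in sgZNF507 against sgZNF146 of -0.50 and -0.55, all with an edgeR adjusted p of 1. Leaving out 1 library moved LDHC in sgZNF507 against EV only between -0.49 and -0.41. Other values here depended on single libraries. IGFBP3 in sgZNF146 against EV was 0.09 without EV replicate 1 and 1.19 without EV replicate 2. PDK4 in sgZNF507 against sgZNF146 was -0.06 without sgZNF146 replicate 1 and -0.91 without sgZNF146 replicate 2.

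The second comparison set the 3 libraries numbered 2 against the 3 numbered 1, with the group in the model. The labels do not say what libraries of 1 number share. Here 5 of the 40 genes passed the threshold, 4 higher and 1 lower in replicate 2, beside 7.25% of all tested genes. SLC2A1, the glucose transporter GLUT1, lies at chr1:43391024-43424564 on the minus strand of GRCh37. It went from 57.5 to 67.3 CPM in EV, from 61.6 to 68.9 CPM in sgZNF146 and from 56.3 to 70 CPM in sgZNF507. HK2, the hexokinase that traps glucose in the cell, lies at chr2:75061254-75120486 on the plus strand of GRCh37. It went from 96.9 to 108 CPM in EV, from 97 to 115 CPM in sgZNF146 and from 89.2 to 110 CPM in sgZNF507. For both genes every replicate 2 library was above every replicate 1 library. The log2 differences were 0.23 (SE 0.0493, edgeR adjusted p = 0.00122) for SLC2A1 and 0.23 (SE 0.0441, adjusted p = 2.89e-04) for HK2, and each passed in 14 of 14 alternative analyses. The 14 alternatives are not independent of one another. A library left alone in its group adds nothing to this difference, so leaving out either or both libraries of a group is nearly the same analysis.

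KDM3A, a HIF-induced histone H3K9 demethylase, went from 46.7 to 50.5 CPM in EV, from 44.7 to 50.8 CPM in sgZNF146 and from 41.7 to 51.7 CPM in sgZNF507 (log2 difference 0.20, SE 0.0544, edgeR adjusted p = 0.0141). NDRG1 went from 75.1 to 85 CPM in EV, from 75.6 to 85.5 CPM in sgZNF146 and from 86.5 to 94 CPM in sgZNF507 (0.16, SE 0.0449, adjusted p = 0.0205). The KDM3A libraries separated by number across all groups, and those of NDRG1 within each group. EPAS1 was the gene that was lower, from 35.3 to 32.4 CPM in EV, from 36 to 30.4 CPM in sgZNF146 and from 37.7 to 31.7 CPM in sgZNF507 (-0.21, SE 0.0599, adjusted p = 0.024). Its replicate 2 libraries all lay below its replicate 1 libraries. These 3 genes passed in 7 of 14 alternatives each, with adjusted p up to 0.179 for KDM3A, 0.244 for NDRG1 and 0.233 for EPAS1. The KDM3A and EPAS1 calls were lost without either sgZNF146 or either sgZNF507 library, and the NDRG1 call without either EV or either sgZNF146 library. DESeq2 called only SLC2A1 and HK2 among the 40.

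The 6 enzymes of the payoff steps moved little and in 1 direction. Their log2 differences lay between -0.14 and -0.05 (median -0.123, beside 0.0014 for all tested genes), and none passed, with the lowest adjusted p at 0.0548 for PGAM1 (edgeR). All 6 stayed below 0 under DESeq2 size factors and upper quartile scaling, with medians of -0.126 and -0.141. Under upper quartile scaling ENO1, PGK1 and PGAM1 passed as lower, which changed the split of the called genes from 4 higher and 1 lower (80% higher) to 4 and 4 (50% higher). With DESeq2 size factors it was 4 and 2 (66.7% higher). Without either EV library it was 3 and 4 (42.9% higher), with ENO1, PGAM1 and PKM among the lower genes, and without both EV libraries 3 and 5 (37.5% higher), with GAPDH in addition. Without the filter on low counts ENO1 and PGAM1 also passed as lower (4 and 3). The preparatory steps showed no single direction, with 5 of 9 enzymes above 0.

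In all 3 groups replicate 2 was above replicate 1 for 9 of the 40 genes, beside 20.3% of all tested genes, and below for 13 of 40, beside 19.3%. The 9 were SLC2A1, HK2, PFKL, PFKM, BNIP3L, VEGFA, ADM, NDRG1 and KDM3A. The 13 were SLC2A3, GPI, ALDOA, PGK1, PGAM1, ENO1, ENO2, PKM, LDHA, LDHB, EPAS1, ARNT and VHL. Both glucose transporters are thus on different sides, as are the HIF-induced isozymes HK2 and LDHA. Replicate 2 was the deeper library in EV (27845834 against 24883624 counts) and sgZNF507 (28524025 against 22724439) and the shallower in sgZNF146 (25104488 against 26191267), where SLC2A1 and HK2 were also higher in replicate 2.

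**Figure D4:**
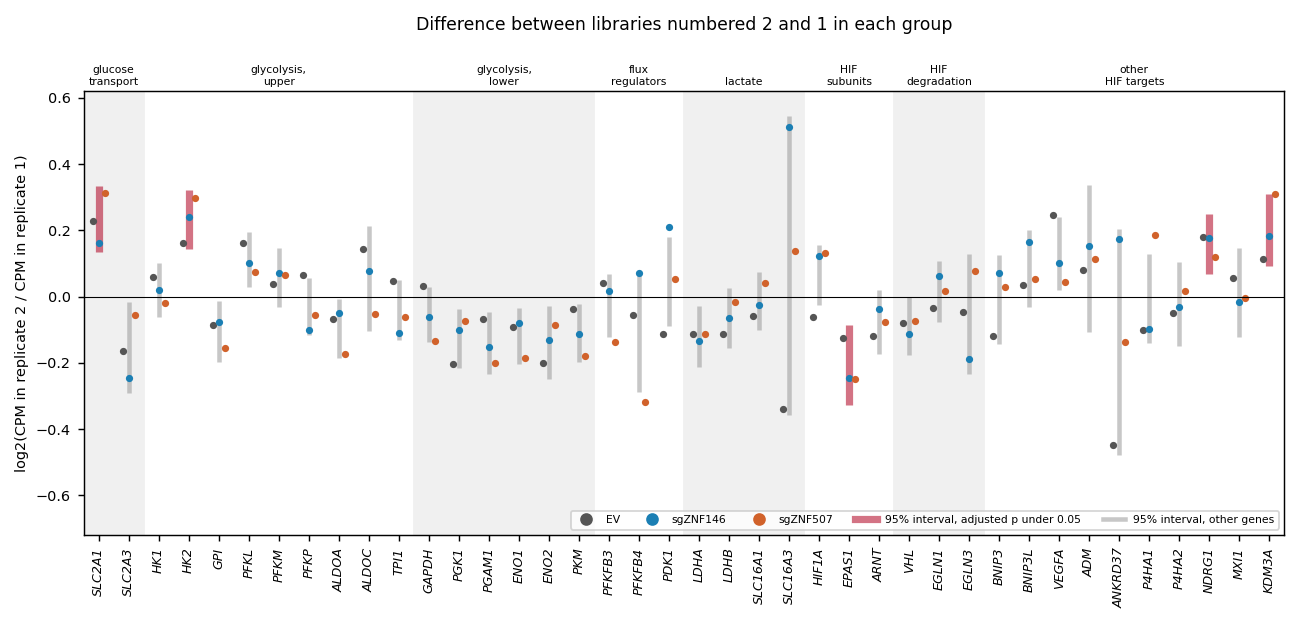
Log2 ratio of CPM in replicate 2 to CPM in replicate 1 for the 40 tested genes, 1 point per group, with the 95% interval of the shared difference from edgeR as a bar. Red bars mark the 5 genes with an adjusted p under 0.05, which are SLC2A1, HK2, NDRG1 and KDM3A above 0 and EPAS1 below.

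Of the 82 other pathway genes, 13 differed by replicate number, 5 higher and 8 lower, beside 7.25% of all tested genes. Of the 33 tested hypoxia-induced genes 0 were higher and 6 lower. The 33 glycolysis, pyruvate and lactate genes gave 3 higher and 1 lower, and the 16 HIF pathway genes 2 higher and 1 lower. HMOX1 was lower by a log2 difference of -0.38 (SE 0.0457, edgeR adjusted p = 5.36e-08), lower in replicate 2 of all 3 groups. STC2, the secreted glycoprotein stanniocalcin 2, went from 58.4 to 46.6 CPM in EV, from 56 to 45 CPM in sgZNF146 and from 64.3 to 49.9 CPM in sgZNF507 (-0.34, SE 0.0512, adjusted p = 8.01e-06). DDIT4 was lower by -0.28 (SE 0.0578, adjusted p = 0.00103). Besides these 3, the hypoxia-induced genes JMJD6 (-0.21), MIF (-0.20) and TFRC (-0.14), the glucose transporter SLC2A12 (-0.45) and the prolyl hydroxylase EGLN2 (-0.23) were lower. The 5 higher genes were the glucose transporter SLC2A8 (0.31), USP20, a deubiquitinase (0.28), GBE1, the glycogen branching enzyme (0.33), the pyruvate dehydrogenase phosphatase PDP2 (0.20) and the lectin OS9 (0.15). HMOX1, STC2, DDIT4, SLC2A8 and USP20 passed in 14 of 14 alternatives, and the other 8 in 4 to 11 of 14.

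**Figure D5:**
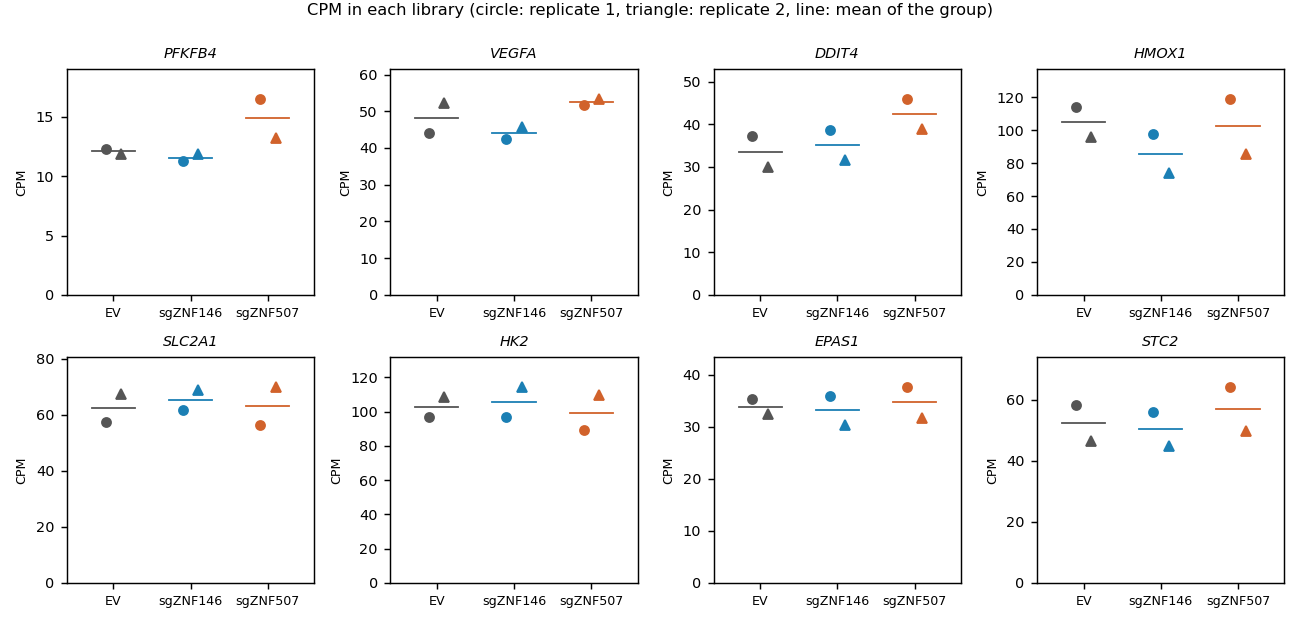
CPM of 8 genes in each library, with circles for replicate 1, triangles for replicate 2 and a line at the mean of the group. PFKFB4 is highest in sgZNF507, the replicates of SLC2A1 and HK2 separate with replicate 2 above, and those of EPAS1, STC2, HMOX1 and DDIT4 separate within each group with replicate 2 below.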

How the data were processed

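RNA of 6 HEK293 libraries, 2 for each of EV, sgZNF146 and sgZNF507, was sequenced from a strand-specific, ribosome-depleted paired-end library. Adapters were clipped by the authors (Fastx Toolkit), ribosomal reads were taken out (Bowtie), the rest were mapped to hg19 (TopHat2), and featureCounts gave 1 number per Ensembl gene. These counts were deposited whole, without normalization or pooling. The strand setting of the counting step was not given in the sources used here. PCR copies were counted as separate reads, so floors cover counting error only. Samples were grouped by their labels, which number the replicates, and the study's methods call them biological duplicates.

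Of the identifiers, 96.1% were matched to GENCODE names on GRCh37. Counts were filtered with filterByExpr, scaled by TMM and tested with the edgeR 4.0.16 quasi-likelihood test under R 4.3.3 over all 6 libraries, and p-values were adjusted over all 22010 genes by the Benjamini-Hochberg method. CPM are counts relative to the TMM-scaled library size. DESeq2 1.42.0, other scalings and filters, the 4 libraries compared, a replicate block and leaving out libraries were alternatives. The procedure was tested on simulated counts. The difference between replicate numbers is the coefficient of the number in a model with the group. Same-numbered libraries deviated together from their group means over 22010 genes (r = 0.138 for EV and sgZNF146, 0.176 for EV and sgZNF507, 0.145 for sgZNF146 and sgZNF507). The main comparisons of conditions do not use this pairing, which entered only through the replicate block as an alternative.

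Promoter sequences are those of RefSeq on GRCh38.p14. Of the 41 genes, 20 overlap exons of another gene of the table, 17 of them on the opposite strand. The 41 genes and the other lists were chosen with earlier results of these data known. Values in every library are given for genes past the threshold, the 3 with the largest change in each comparison, the 3 highest per kb and the HIF subunit and degradation genes. Of the other pathway genes, those past the threshold or, with none, the 2 with the largest change (mean of at least 1 CPM) are named. TFRC under the block, and HMOX1 in the comparisons of the disruptions, were added after their values were seen.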

Additional observations from a re-analysis of the deposited data

Results flagged for a closer look

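In 4 genes both libraries of one disruption lay above both EV libraries and both libraries of the other lay below them. These were PFKFB4 and P4HA2 among the 41 genes and PDP1 and ARNT2 among the other pathway genes. They are 2 of the 40 tested genes (5%) and 2 of the 82 other pathway genes (2.44%), beside 474 of all 22010 tested genes (2.15%). The log2 difference of sgZNF507 against sgZNF146 was 0.361 for PFKFB4 and 0.13 for P4HA2, a collagen prolyl hydroxylase, where sgZNF507 was the higher group. It was -0.239 for PDP1, a pyruvate dehydrogenase phosphatase, and -0.255 for ARNT2, a neural partner of HIF alpha, where sgZNF507 was the lower group. The direct test of this difference gave an edgeR adjusted p of 1 for PFKFB4, P4HA2 and PDP1 and of 0.939 for ARNT2.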

How the results depend on the processing

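With 2 libraries a group, the 3 comparisons of conditions called 0 of the 41 genes under every alternative except the replicate block. Without the filter on low counts 101 genes passed for sgZNF507 against EV, 19 for sgZNF146 against EV and 112 for sgZNF507 against sgZNF146. With the replicate block the numbers were 121, 33 and 196, with 1 of the 41 genes (VEGFA) in the last. The block changed no other call among the 41, and among the other pathway genes those of DDIT4, HMOX1 and TFRC. Fitting only the 4 libraries compared called 3 genes for sgZNF146 against EV. Leaving out 1 library at a time gave 12 (without EV replicate 1) to 44, 0 to 3 and 13 (without sgZNF146 replicate 1) to 37 genes, and medians of the 40 genes of 0.000297 to 0.0707 for sgZNF507 against EV and -0.00218 to 0.0858 for sgZNF507 against sgZNF146. PDK4 in sgZNF146 against EV changed sign without sgZNF146 replicate 1 (-0.0213, range -0.0213 to 0.823), and the cause was not tested.

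Between replicate numbers, upper quartile scaling called 8 of the 40 genes and DESeq2 called 2, with 423 genes in all. Leaving out both libraries of a group called 8 (EV), 2 (sgZNF146) and 3 (sgZNF507) of the 40, with 1027 genes in all without sgZNF146 and 980 without sgZNF507. Leaving out 1 library gave 956 to 1239 genes and 2 to 7 of the 40. KDM3A, NDRG1 and EPAS1 are the ones lost, and both SLC2A1 and HK2 passed each time. The length chosen for the isozyme shares was varied after seeing the data. Depth limits SLC16A3, ANKRD37 and CA9 most.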
